A study of Mus musculus with 15 samples.

Results

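The genes examined here make, bind, break down or cross-link hyaluronan: the synthases Has1 and Has2, the receptor Cd44, the degradation factor Cemip, and the binding proteins Tnfaip6 and Vcan. Their members were the consensus ATAC-seq peaks whose nearest protein-coding gene interval, up to 100 kb from the peak centre in the mm10 annotation, was 1 of these 6 genes. By that rule 190 of the 206367 peaks belonged to them: 105 to Cd44, 27 to Has2, 24 to Cemip, 16 to Vcan, 9 to Has1 and 9 to Tnfaip6. The nearest gene is a label of position and need not be the gene that a peak acts on.

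The study asked how open chromatin changes in mouse embryonic fibroblasts (MEFs, connective tissue cells grown from embryos, here of C57/B16 background) when Fosl2 is activated or Ezh2 is inhibited. Cells of 12 libraries carried a CRISPRa-VPR-mCherry construct, a CRISPR system that brings a transcriptional activator to a chosen gene. Their guides were either scrambled or aimed at Fosl2, which encodes the AP-1 protein Fra2, and cells positive for both mCherry and THY1 were sorted. For 3 more libraries, MEFs were given GSK343, which blocks the methyltransferase Ezh2, at 4 µM over 3 days with a washout day after it. The 5 groups of 3 libraries were early control, early Fra2, late control, late Fra2 and Ezh2 inhibitor. Most sample labels give days 3 and 10 after infection for early and late, the series design gives 4 and 11, and early control 3 and the inhibitor libraries are labelled day 4. The inhibitor group has no vehicle control of its own here and was set against early control cells, which carried the construct and scrambled guides. The sample titles end in S27 to S29 for the inhibitor libraries and in S1 to S3 for the early controls. What these numbers stand for is not stated, and a difference that goes with them cannot be told apart from the inhibitor. Transduction or sorting of the inhibitor cells, the promoter that drives the construct, and separate cultures behind the replicates are not stated in the labels. The p-values therefore rest on variation among libraries that could be technical only.

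Hyaluronan is a long, unsulfated sugar polymer that the Has enzymes spin out at the plasma membrane from UDP-glucuronic acid and UDP-N-acetylglucosamine. Cells hold and sense it through CD44, fibroblasts depolymerise it with the help of CEMIP, and TSG-6 (encoded by Tnfaip6) and the proteoglycan versican (Vcan) build it into a cross-linked coat. Fra2 pairs with Jun proteins to form AP-1, which binds variants of the letters TGANTCA, and Ezh2 is the enzyme of a Polycomb complex that methylates histone H3.

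Libraries held 6750562 to 25283396 counts in peaks. Levels are in CPM, the counts in a peak per mega (M) counts in all peaks of the library after scaling, and 3 counts, the floor used here, came to 0.117 to 0.42 CPM. Early control 3 was the shallowest library and stood apart, with a correlation of 0.783 with early control 1, against at least 0.896 for every pair within the other 4 groups. Accessibility over the 36 peaks of Fosl2, the gene the guides target, rose in early Fra2 libraries by a log2 fold change of 0.15 ± 0.04 (SE, adjusted p = 0.00882) and did not pass in late ones (−0.02 ± 0.04, adjusted p = 0.806). All 8 fibroblast markers examined had a peak at a gene end, with a median of 11.4 CPM. Peaks were also present at a gene end of 3 of 6 macrophage and immune, 3 of 5 endothelial and 4 of 6 epithelial markers, and Ptprc, Adgre1, Itgam, Pecam1, Emcn, Krt8 and Krt18 had none. Over the genes with such a peak, the medians of these 3 lists were 9.52, 4.6 and 3.15 CPM. The fibroblast markers ran from 3.05 CPM (Prrx1) to 17.6 CPM (Pdgfrb), so levels overlapped between lists. In bulk libraries, a peak open in fewer cells and a peak less open in each cell cannot be told apart.

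Promoter sequences, 250 bases before to 50 after the start site, were matched for 5 of the 6 genes in RefSeq (GRCm38.p6), and Has2 was not among them. The promoters of Tnfaip6 and Has1 are shown because they held a match to a searched motif, and that of Cemip because the peak over it passed a test. Capitals mark matches on either strand to the AP-1 letters TGANTCA, the CRE letters TGACGTCA or the TEAD letters GGAATG, which the opposite strand shows as CATTCC.
Tnfaip6, chr2:52037863-52038162, plus strand: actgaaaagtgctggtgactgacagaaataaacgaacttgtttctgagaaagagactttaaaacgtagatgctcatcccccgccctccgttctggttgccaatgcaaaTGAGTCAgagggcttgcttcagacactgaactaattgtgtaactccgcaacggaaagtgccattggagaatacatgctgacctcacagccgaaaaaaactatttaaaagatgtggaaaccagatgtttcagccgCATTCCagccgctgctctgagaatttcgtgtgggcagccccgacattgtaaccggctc
Has1, chr17:17855139-17855438, minus strand: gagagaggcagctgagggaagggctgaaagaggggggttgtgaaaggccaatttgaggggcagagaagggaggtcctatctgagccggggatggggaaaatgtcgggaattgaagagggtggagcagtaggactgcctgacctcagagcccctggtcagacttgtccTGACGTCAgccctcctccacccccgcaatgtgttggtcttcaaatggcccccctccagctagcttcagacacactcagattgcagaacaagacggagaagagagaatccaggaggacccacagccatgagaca
Cemip, chr7:84086456-84086755, minus strand: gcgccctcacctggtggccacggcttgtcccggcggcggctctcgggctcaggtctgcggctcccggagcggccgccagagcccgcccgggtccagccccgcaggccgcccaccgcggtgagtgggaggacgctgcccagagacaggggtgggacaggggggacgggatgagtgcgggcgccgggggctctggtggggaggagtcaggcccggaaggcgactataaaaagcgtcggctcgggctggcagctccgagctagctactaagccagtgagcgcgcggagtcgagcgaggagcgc
The Tnfaip6 window held 1 AP-1 match starting 142 bases before the start site and 1 TEAD match starting 8 bases before it, and the Has1 window held 1 CRE match starting 83 bases before it. The windows of Cd44, Cemip and Vcan held none of the 3 motifs. Of the 32851 promoter windows in the table, 7.81% held the AP-1 letters, 1.79% the CRE letters and 14.7% the TEAD letters, so a match is a description of the window and not a site of binding. The Cemip window was the richest in G and C, at 73.7% of its bases, and the Tnfaip6 window the poorest of the 5, at 47.0%. Each of the 5 windows lay under a consensus peak, and those start-site peaks are described with their genes.

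Cd44 stood out by its number of peaks: 21 of the 18301 genes with a peak had more than its 105, and the median gene had 6. Its peaks lay close together, with a median spacing of 1020 bp against 4592 bp over all neighbouring peaks, and most were weak, 75 of 105 having a mean under 4 CPM. The median member peak had a mean of 3.17 CPM at Cd44, 3.27 at Has2, 3.1 at Cemip, 2.92 at Tnfaip6, 2.88 at Has1 and 2.21 at Vcan, beside 3.27 CPM over all tested peaks. Peak widths were equal (502 bp), so levels of peaks can be set side by side. The highest peak of a gene was in no case its start-site peak. It was a peak 42.4 kb upstream of Cd44 (mean 43.1 CPM), a peak inside Has1 that also lies in the interval of Spaca6 (32.9 CPM), a peak inside Cemip (19.2 CPM), a peak 27 kb outside Has2 (17.9 CPM), a peak 3.6 kb inside Vcan (11.7 CPM) and a peak 31.5 kb upstream of Tnfaip6 (9.63 CPM).

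In early Fra2 cells 14 of the 190 member peaks rose and 7 fell (adjusted p under 0.05, edgeR), with a median log2 fold change of 0.02. These are 7.37% and 3.68% of the members, against 10.1% and 4.92% of all 206349 tested peaks, so both shares were below the background. Early Fra2 libraries were above early controls at the sum of the 3 endothelial markers with a gene-end peak (14.9 to 15.7 against 11.4 to 14.4 CPM). Of these, the mean rose at Cdh5 (4.17 to 5.02 CPM) and Tie1 (2.26 to 4.4 CPM) and fell at Kdr (6.91 to 5.97 CPM). Early Fra2 libraries were below early controls at the summed epithelial markers (10.6 to 13.4 against 13.8 to 16.1 CPM), and overlapped them at the other 2 lists. The part of these levels in the result was not tested. In late Fra2 cells 15 member peaks rose and 2 fell, 7.89% and 1.05% against a background of 6.44% and 3.54%, with a median of 0.20 against −0.01 over all peaks. With the Ezh2 inhibitor 5 member peaks rose and 0 fell, 2.63% and 0.00% against a background of 0.552% and 0.341%, and all 5 belonged to Cd44. Scaling the libraries on gene-end peaks alone moved the median of all peaks to 0.18, 0.23 and 0.14 in these comparisons, from −0.03, −0.01 and 0.00. Under that scaling the member calls became 33 higher and 3 lower early (background 19.2% and 1.37%), 49 and 0 late (17.2% and 0.893%), and 11 and 0 with the inhibitor (3.84% and 0.255%).

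Summed over all its peaks, a gene gives 1 value per library. Has2, Cemip and Tnfaip6 rose in early Fra2 cells, where 26.5% of all genes passed in either direction. Cd44 rose and Has1, whose sum includes a high peak shared with Spaca6, fell in late Fra2 cells, where 23.9% of all genes passed. Vcan passed in neither, and none of the 6 passed with the inhibitor, where 5.02% of all genes did (edgeR: Cd44 adjusted p = 0.0776 and Cemip 0.0625, with DESeq2 values of 0.042 and 0.0346).

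**Figure D1:**
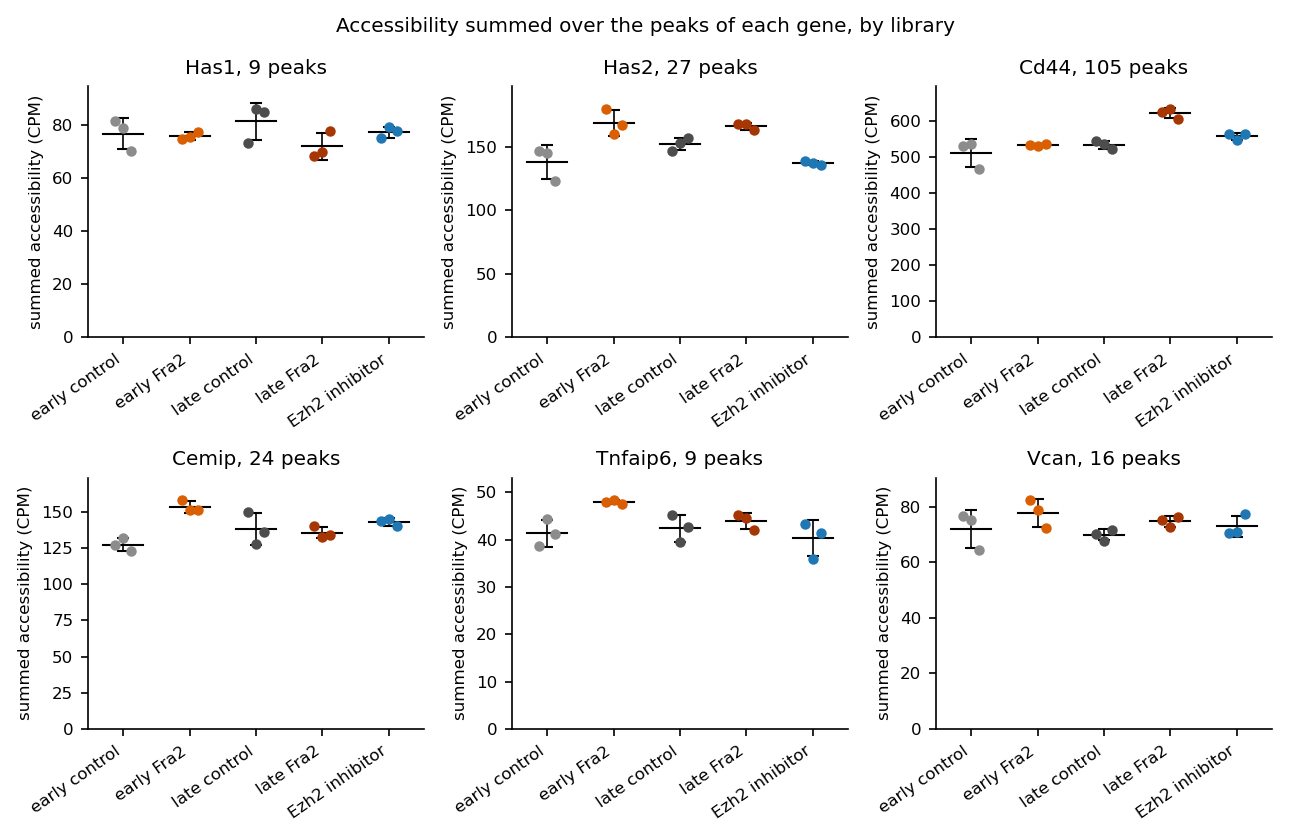
Accessibility summed over the peaks of each gene (CPM, vertical axis) in each of the 15 libraries, by group. Points are libraries, the long bar is the group mean and the error bar the SD (n = 3). The 3 late Fra2 libraries lie above all other libraries at Cd44, between 606 and 633 CPM, and the 3 early Fra2 libraries lie above the 3 early controls at Has2, Cemip and Tnfaip6.

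Of the synthases, Has2, the main hyaluronan synthase of many mesenchymal cells, rose early. Its summed accessibility was 147, 145 and 123 CPM in early controls 1 to 3 and 180, 160 and 167 CPM in early Fra2 libraries 1 to 3, with no overlap. The log2 fold change was 0.28 ± 0.06 (SE, adjusted p = 7.48e-04). The late groups did not overlap either, at 147 to 157 CPM in controls and 163 to 168 CPM in Fra2 libraries, but the change of 0.12 ± 0.05 did not pass (adjusted p = 0.094). Counting only peaks within 10 kb of the gene, the early change was 0.16 and no longer passed (adjusted p = 0.0904).

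Most of the Has2 calls lay far from the gene. Of its 27 peaks, 4 rose early and 3 rose late, none fell, and no peak was called at both times. The share of all tested peaks called at both times was not counted, here or for the other genes. The rises are 14.8% and 11.1% of its peaks, against 10.1% and 6.44% of all tested peaks. The peak with the smallest p early, chr15:56765073-56765574, 70.8 kb past the higher-coordinate end of the gene, held 3.81, 5.01 and 2.94 CPM in early controls and 8.02, 8.95 and 6.34 CPM in early Fra2 libraries. All 3 Fra2 libraries were above all 3 controls, with a log2 fold change of 0.94 ± 0.19 (adjusted p = 2.99e-04), and the call was kept under all 13 alternatives. The other 3 early calls, at log2 fold changes of 0.49 to 0.81, were each lost under at least 3 alternatives. Late, the smallest p was at chr15:56695917-56696418, 1.6 kb past the same end, which went from 2.09, 1.81 and 1.46 CPM in late controls to 3.64, 4.16 and 3.50 CPM in late Fra2 libraries. That change of 1.08 ± 0.27 (adjusted p = 0.00694) was lost without late Fra2 2 or without late control 3 (adjusted p = 0.0591 at most). At the gene end itself the peak chr15:56694425-56694926 gave no call, with 10.1, 11.1 and 5.6 CPM in early controls and 9.87, 8.95 and 7.93 CPM in early Fra2 libraries.

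Has1, which encodes a second enzyme of the same activity, had 1 peak that fell at both times. The peak chr17:17862305-17862806, 7.0 kb upstream of the start site, held 3.33, 2.76 and 3.22 CPM in early controls and 1.09, 0.959 and 1.66 CPM in early Fra2 libraries. In late controls it held 1.94, 2.05 and 1.58 CPM, and in late Fra2 libraries 0.556, 0.800 and 1.29 CPM. Fra2 libraries were below their controls without overlap at both times. The log2 fold change was −1.33 ± 0.34 early (adjusted p = 0.004), a call kept under all 13 alternatives, and −1.11 ± 0.35 late (adjusted p = 0.0332), which was lost under 6 of 13 alternatives with values from −1.21 to −0.84. The late loss followed leaving out any of late Fra2 1, late Fra2 2 or the 3 late controls, and scaling on gene-end peaks. This peak was weak and stood in the peak lists of 5 of the 15 libraries.

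The other Has1 peaks gave 1 more Fra2 call. The peak chr17:17849018-17849519, 6.3 kb inside the gene, rose late from 1.05, 1.63 and 1.1 CPM to 2.57, 2.72 and 2.76 CPM (1.08 ± 0.34, adjusted p = 0.0338), and leaving out any of 5 of the 6 late libraries (all but late control 2) ended the call, with adjusted p up to 0.136. The peak over the start site, chr17:17854834-17855335, lies over the CRE match of the printed promoter and was not called. It held 1.99, 2.68 and 4.06 CPM in early controls and 3.80, 3.04 and 4.47 CPM in early Fra2 libraries, which overlap. Summed over its 9 peaks Has1 fell late by 0.18 on the log2 scale (SE 0.07, adjusted p = 0.0477), from 73, 85.9 and 84.6 CPM to 68.1, 69.7 and 77.7 CPM. The 2 groups overlapped, and the call was lost without late Fra2 1 or 2 or late control 2 or 3 (adjusted p 0.149 to 0.213) and over peaks within 10 kb of the gene (adjusted p = 0.0862). The highest Has1 peak, which also lies in the interval of Spaca6, is part of this sum, with a mean of 32.9 CPM over all libraries. That peak changed by −0.32 late (adjusted p = 0.208), and the sum was not tested without it.

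Cd44, the main cell-surface receptor of hyaluronan, gave 9 of the 21 early calls and 9 of the 17 late calls, from 105 of the 190 member peaks. Early, 4 of its 105 peaks rose and 5 fell, 3.81% and 4.76% against 10.1% and 4.92% of all tested peaks. Late, 9 rose and 0 fell, 8.57% and 0.00% against 6.44% and 3.54%. No Cd44 peak was called at both times, a number without a background share. Its summed accessibility did not pass early, at 531, 535 and 467 CPM in controls and 533, 529 and 536 CPM in Fra2 libraries (0.06 ± 0.04, adjusted p = 0.305). Late it rose from 544, 536 and 522 CPM to 623, 633 and 606 CPM, without overlap, a change of 0.22 ± 0.04 (adjusted p = 4.66e-04) that was kept whichever late library was left out (0.20 to 0.23).

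The start-site peak and the highest peak of the locus did not pass in any of the comparisons with the scaling and fit used here. The start-site peak, chr2:102901428-102901929, held 29.6, 24.1 and 16.7 CPM in early controls and 24.7, 23.8 and 20.5 CPM in early Fra2 libraries, values that overlap (−0.05 ± 0.16, adjusted p = 0.851). Late it held 23.5, 26.6 and 26.7 CPM in controls and 19.0, 19.5 and 20.6 CPM in Fra2 libraries, which do not overlap (−0.38 ± 0.16, adjusted p = 0.105, and −0.39 with an adjusted p of 0.0205 when only the groups compared were fitted). The upstream peak chr2:102943846-102944347 held 49.2, 49.6 and 28.8 CPM in early controls and 53.8, 50.6 and 40.1 CPM in early Fra2 libraries (0.16 ± 0.16, adjusted p = 0.524). It passed early as higher, at 0.37, with scaling on gene-end peaks (adjusted p = 0.0175) and with loess offsets (adjusted p = 1.26e-04), and against the inhibitor, at 0.25 to 0.38, under these and when only the groups compared were fitted. Early control 3 was the lowest of the 15 libraries at both peaks. Without it, the start-site peak passed as lower with the inhibitor (−0.48, adjusted p = 0.0203).

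The 4 early rises at Cd44 were at peaks with means of 15.3, 9.4, 7.68 and 3.87 CPM. The smallest p was at chr2:102895187-102895688, 6.2 kb inside the gene, with 13.5, 14.1 and 8.40 CPM in early controls and 23.4, 21.4 and 17.7 CPM in early Fra2 libraries. Every early Fra2 library was above every early control, and the change was 0.76 ± 0.16 (adjusted p = 5.11e-04). The other 3 peaks that rose lay 28.2 and 46.0 kb inside the gene and 12.9 kb upstream of it, with log2 fold changes of 0.75 to 0.85. All 4 calls were kept under all 13 alternatives, including scaling on gene-end peaks.

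The 5 early falls were at weak peaks in the gene body, each with a mean under 4 CPM. The smallest p was at chr2:102888745-102889246, 12.7 kb inside the gene, which went from 4.51, 5.95 and 3.36 CPM in early controls to 2.71, 1.92 and 2.59 CPM in early Fra2 libraries. The groups did not overlap, and the change was −0.95 ± 0.23 (adjusted p = 0.00304), but without early control 2 it was −0.74 and did not pass (adjusted p = 0.0606). The other 4 falls had log2 fold changes of −1.11 to −0.75 and were each lost under at least 1 alternative. One of them, 31.6 kb inside the gene, was lost only without early control 3, where its level was 5.88 CPM against 3.38 and 3.27 CPM in the other early controls (−0.73, adjusted p = 0.0506 without it).

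Late, the 9 Cd44 peaks that rose all lay in the far-side stretch of the gene body or within 10 kb past the far end. The smallest p was at chr2:102825906-102826407, 75.5 kb from the start site, with 3.51, 2.96 and 2.44 CPM in late controls and 5.61, 6.19 and 6.57 CPM in late Fra2 libraries. Its early values overlapped, at 2.63, 3.41 and 2.10 CPM in controls and 3.09, 2.32 and 3.46 CPM in Fra2 libraries. The late change was 1.05 ± 0.20 (adjusted p = 3.72e-04). It and 3 others, with log2 fold changes of 0.87 to 0.91, were kept under all 13 alternatives, and the remaining 5 (0.58 to 0.73) were each lost under at least 4. In these late Fra2 libraries the summed level at the 8 fibroblast marker genes was 65.2 to 76.1 CPM against 82.1 to 98.9 CPM in late controls. By gene, the mean rose at Prrx1 (2.67 to 3.18 CPM), was close at Col3a1 (6.13 and 6 CPM) and fell at the others. The summed level of the 3 endothelial markers with a gene-end peak was higher, at 14.9 to 15.8 against 12.1 to 13.3 CPM. Of these, the mean rose at Cdh5 (3.88 to 6.03 CPM) and Tie1 (2.62 to 4.17 CPM) and fell at Kdr (6.22 to 5.23 CPM). The sums of the macrophage and immune and the epithelial markers overlapped. The part of these marker levels in the result was not tested.

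Laid along the locus, the changes at Cd44 differed by stretch. The stretches were drawn after the values had been seen, with the gene body cut at its midpoint, and are a description without a test. In the 33 peaks of the start side of the body, 30 had a negative log2 fold change in early Fra2 cells, with a median of −0.45, while 24 were positive in late Fra2 cells, with a median of 0.25. The early median stayed between −0.50 and −0.24 under the 13 alternatives, −0.24 being the value with scaling on gene-end peaks and −0.50 the value without early control 3. In the 36 peaks of the far side, the median was 0.03 early and 0.41 late, with 35 of 36 positive late. In the 12 peaks past the far end it was 0.17 early and 0.37 late, with all 12 positive late. The controls themselves differed on the start side, where 23 of the 33 peaks were negative in late against early controls (median −0.22). The summed start-side level was 129, 125 and 117 CPM in early controls and 115, 109 and 110 CPM in late controls. Early Fra2 libraries, at 113, 102 and 113 CPM, overlapped the late controls, and late Fra2 libraries held 126, 126 and 128 CPM.

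**Figure D2:**
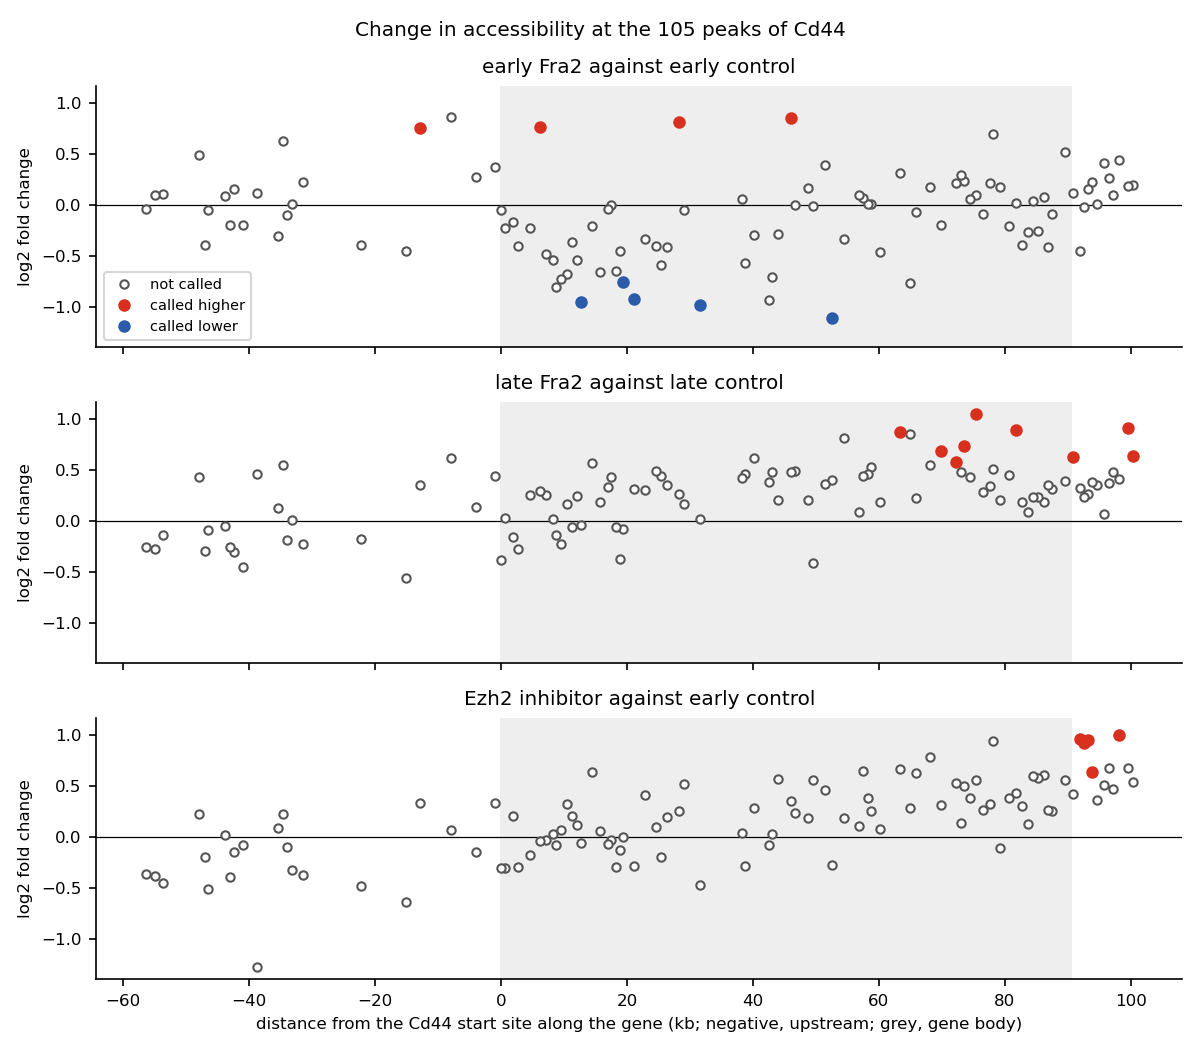
Log2 fold change (vertical axis) of each of the 105 Cd44 peaks against its distance from the start site in kb (horizontal axis, negative values upstream), for 3 comparisons. The grey band is the gene body, filled points passed the test and open points did not. The early falls lie inside the gene, the late rises on the far side of the body (6 peaks) or past the far end (3 peaks), and the 5 rises with the inhibitor past its far end.

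With the Ezh2 inhibitor, the 5 called peaks lay 1.5 to 7.6 kb past the far end of Cd44, between chr2:102803320-102803821 and chr2:102809395-102809896. Each is given here, the weaker ones chosen after their values were seen. The smallest p was at chr2:102808268-102808769, with 4.94, 5.15 and 5.18 CPM in early controls and 10.6, 10.3 and 8.51 CPM with the inhibitor, a change of 0.95 ± 0.17 (adjusted p = 0.0026). The farthest of the 5 went from 2.09, 2.68 and 1.96 CPM to 4, 5.04 and 4.58 CPM (adjusted p = 0.0225). Groups also did not overlap at the neighbours with changes of 0.63 ± 0.16 and 0.92 ± 0.21, and did overlap at the one nearest the gene (0.96 ± 0.24), where early control 1 stood at 3.76 CPM and inhibitor library 2 at 3.59 CPM. Inhibitor libraries were below early controls, without overlap, at the summed fibroblast markers (74.8 to 78.5 against 79.6 to 103 CPM) and the summed epithelial markers (9.54 to 11.7 against 13.8 to 16.1 CPM), and overlapped them at the other 2 lists. The part of these marker levels in the result was not tested.

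The 5 inhibitor calls were made in the fit of all 15 libraries. Fitted on the 6 libraries of this comparison alone, none of the 5 passed, and over all tested peaks 10 were higher and 1 lower. The strongest peak then stood at 0.94 with an adjusted p of 0.0687. It was kept whichever library was left out, whereas the others were lost without early control 2 or without inhibitor library 1 or 3 (adjusted p up to 0.193). Without early control 2, inhibitor 1 or inhibitor 3 the count was 1, without inhibitor 2 it was 3, and without early control 3 it was 4 higher and 6 lower. Over all tested peaks the share called was 0.893% with all libraries. It was 0.169%, 0.136%, 0.107% and 0.177% in the first 4 of these fits. Without early control 3 it was 3.67%, with 2933 peaks higher and 4632 lower, so the member counts moved with those of all peaks.

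The direction was shared by neighbours that were not called. All 12 peaks past the far end had a positive log2 fold change with the inhibitor, with a median of 0.65 (0.58 to 0.79 under 13 alternatives), and 34 of the 36 peaks on the far side did, with a median of 0.37. On the start side the median was 0.03, and upstream it was −0.18, with 15 of 22 peaks negative. Summed over the peaks past the far end, libraries held 46.7, 46.3 and 38.8 CPM in early controls and 72, 70.4 and 71 CPM with the inhibitor. Late controls, at 66.5, 69.7 and 55.8 CPM, and late Fra2 libraries, at 83.6, 83.6 and 78.4 CPM, were also above every early control, as were early Fra2 libraries, at 51.1, 49.9 and 51.7 CPM. Restricted to peaks within 10 kb of the gene, Cd44 as a whole passed with the inhibitor (0.27, adjusted p = 0.00221).

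**Figure D3:**
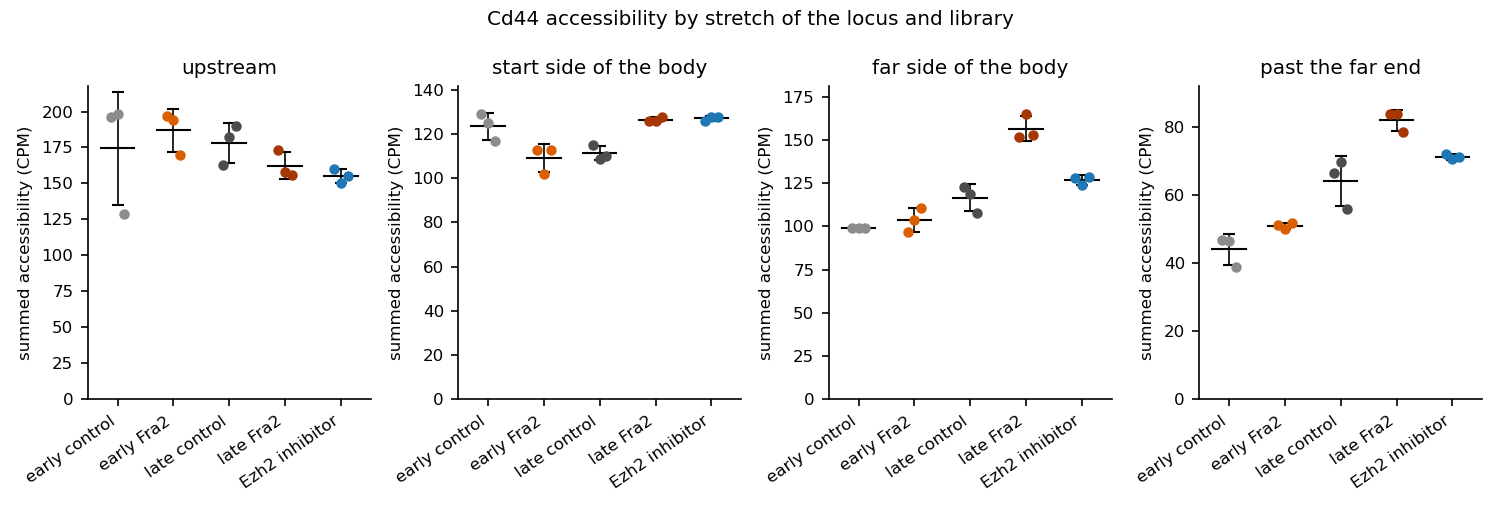
Accessibility summed over the Cd44 peaks of 4 stretches (CPM, vertical axis), from upstream to past the far end, in each of the 15 libraries by group. Points are libraries, the long bar is the mean and the error bar the SD (n = 3). Past the far end the early control and early Fra2 libraries lie at 51.7 CPM or less and all other libraries at 55.8 CPM or more. On the start side of the body the early Fra2 libraries lie below the early controls and overlap the late controls, which also lie below the early controls.

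Cemip, a protein needed for hyaluronan breakdown in fibroblasts, rose early as a whole and fell at its start site. Its summed accessibility went from 127, 132 and 123 CPM in early controls to 158, 151 and 151 CPM in early Fra2 libraries, without overlap (0.26 ± 0.05, adjusted p = 7.41e-04). Late controls held 150, 128 and 136 CPM and late Fra2 libraries 140, 133 and 134 CPM, which overlap (−0.02 ± 0.05, adjusted p = 0.797). Of its 24 peaks, 3 rose and 1 fell early, 12.5% and 4.17% against 10.1% and 4.92% of all tested peaks. None was called late or with the inhibitor (edgeR and DESeq2 gave 0 in each). Other edgeR fits did call Cemip peaks late: 2 higher with scaling on gene-end peaks, 1 higher and 1 lower with loess offsets, and 2 lower when only the groups compared were fitted. Over all tested peaks these 3 fits called 18.1%, 11.4% and 16.1%. At an unadjusted p under 0.05 stood 4 late and 1 inhibitor peaks, 16.7% and 4.17% against 26.0% and 14.7% of all tested peaks.

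The peak with the smallest p at Cemip was deep in the gene body, chr7:83938936-83939437, 147.5 kb from the start site. It held 13.7, 13.9 and 9.24 CPM in early controls and 24.3, 24.7 and 18.2 CPM in early Fra2 libraries, a change of 0.84 ± 0.17 (adjusted p = 2.16e-04) kept under all 13 alternatives. Late libraries held 14 to 16.6 CPM in controls and 15.9 to 18.3 CPM in Fra2 libraries, which overlap. The start-site peak chr7:84086412-84086913, over the printed promoter, went the other way, from 10.6, 11.5 and 8.68 CPM to 8.26, 6.63 and 6.63 CPM. That change of −0.52 ± 0.17 (adjusted p = 0.0269) was lost under 6 of 13 alternatives: scaling on gene-end peaks, fitting only the groups compared, and leaving out early Fra2 2 or 3 or early control 1 or 2 (−0.53 to −0.31, adjusted p 0.0653 to 0.162). The highest peak of the gene, chr7:84029011-84029512, gave no call, with 20.8, 23.1 and 13.6 CPM in early controls and 20.0, 17.4 and 15.7 CPM in early Fra2 libraries. Late its change was −0.36 (adjusted p = 0.122), and it passed as lower when only the groups compared were fitted (−0.37, adjusted p = 0.0314).

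Tnfaip6 encodes TSG-6, which transfers the heavy chains of inter-alpha-inhibitor onto hyaluronan. It had the only member peak that rose at both times, and how many of all tested peaks did so was not counted. This peak, chr2:52057045-52057546, 0.6 kb past the far end of the gene, held 4.29, 3.70 and 4.48 CPM in early controls and 8.31, 8.63 and 7.35 CPM in early Fra2 libraries. In late controls it held 5, 5.43 and 4.45 CPM, and in late Fra2 libraries 7.92, 9.23 and 7.49 CPM. All 6 Fra2 libraries lay above all 6 control libraries. The changes were 0.97 ± 0.18 early (adjusted p = 9.62e-05) and 0.73 ± 0.17 late (adjusted p = 0.00309), both kept under all 13 alternatives. Inhibitor libraries held 6.33, 4.13 and 4.93 CPM and overlapped the early controls.

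Other Tnfaip6 calls were weaker. A peak 6.5 kb upstream, chr2:52031381-52031882, rose early from 1.45, 2.68 and 3.08 CPM to 3.47, 3.44 and 4.54 CPM (0.75 ± 0.25, adjusted p = 0.0327). This rise did not pass without early Fra2 3 or early control 1, with DESeq2, or when only the groups compared were fitted (adjusted p 0.0585 to 0.323). The highest peak, chr2:52006395-52006896, fell late from 9.71, 10.7 and 12 CPM to 8.82, 7.73 and 6.20 CPM (−0.50 ± 0.16, adjusted p = 0.0303). That call was lost without late Fra2 2 or 3 or late control 2 or 3, and with scaling on gene-end peaks (−0.51 to −0.26, adjusted p up to 0.192). The start-site peak chr2:52037771-52038272, over the promoter printed above with its AP-1 match, was not called, at 11.1, 12 and 7.70 CPM in early controls and 10.3, 8.47 and 7.06 CPM in early Fra2 libraries. Summed over 9 peaks, Tnfaip6 rose early from 38.6, 44.3 and 41.2 CPM to 48.0, 48.3 and 47.6 CPM (0.22 ± 0.08, adjusted p = 0.0471), a call lost without any 1 of the early Fra2 libraries or without early control 1 (0.16 to 0.23, adjusted p up to 0.21), and with scaling on total counts (0.20, adjusted p = 0.0708).

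Vcan encodes versican, a large proteoglycan that binds hyaluronan and fills the pericellular matrix. Its strongest change was early, at the weak peak chr13:89699320-89699821, 43.5 kb inside the gene. This peak held 1.99, 1.16 and 0.700 CPM in early controls and 5.36, 3.60 and 3.89 CPM in early Fra2 libraries, a change of 1.62 ± 0.30 (adjusted p = 7.98e-05), which had the highest log2 fold change among the member peaks in that comparison. The groups did not overlap and the call was kept under all 13 alternatives. Inhibitor libraries, at 1.36, 0.772 and 1.44 CPM, stayed within the early control range, and late Fra2 libraries, at 2.93 to 3.68 CPM, lay above late controls, at 1.57 to 2.39 CPM.

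A second Vcan peak, chr13:89671001-89671502, rose late from 2.24, 2.17 and 2.32 CPM to 4.45, 4.11 and 3.87 CPM (0.89 ± 0.25, adjusted p = 0.016), and was lost without late Fra2 1 or 2 or late control 2 or 3 (0.83 to 0.91, adjusted p up to 0.0796). The start-site peak chr13:89742244-89742745 was not called, at 13.5, 13.6 and 11.5 CPM in early controls and 12.3, 10.6 and 10.4 CPM in early Fra2 libraries. Late its change was −0.36 (adjusted p = 0.118), and it passed as lower when only the groups compared were fitted (−0.37, adjusted p = 0.0482). Summed over 16 peaks Vcan did not pass, with changes of 0.10 ± 0.07 early (adjusted p = 0.273) and 0.10 ± 0.07 late (adjusted p = 0.3).

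**Figure D4:**
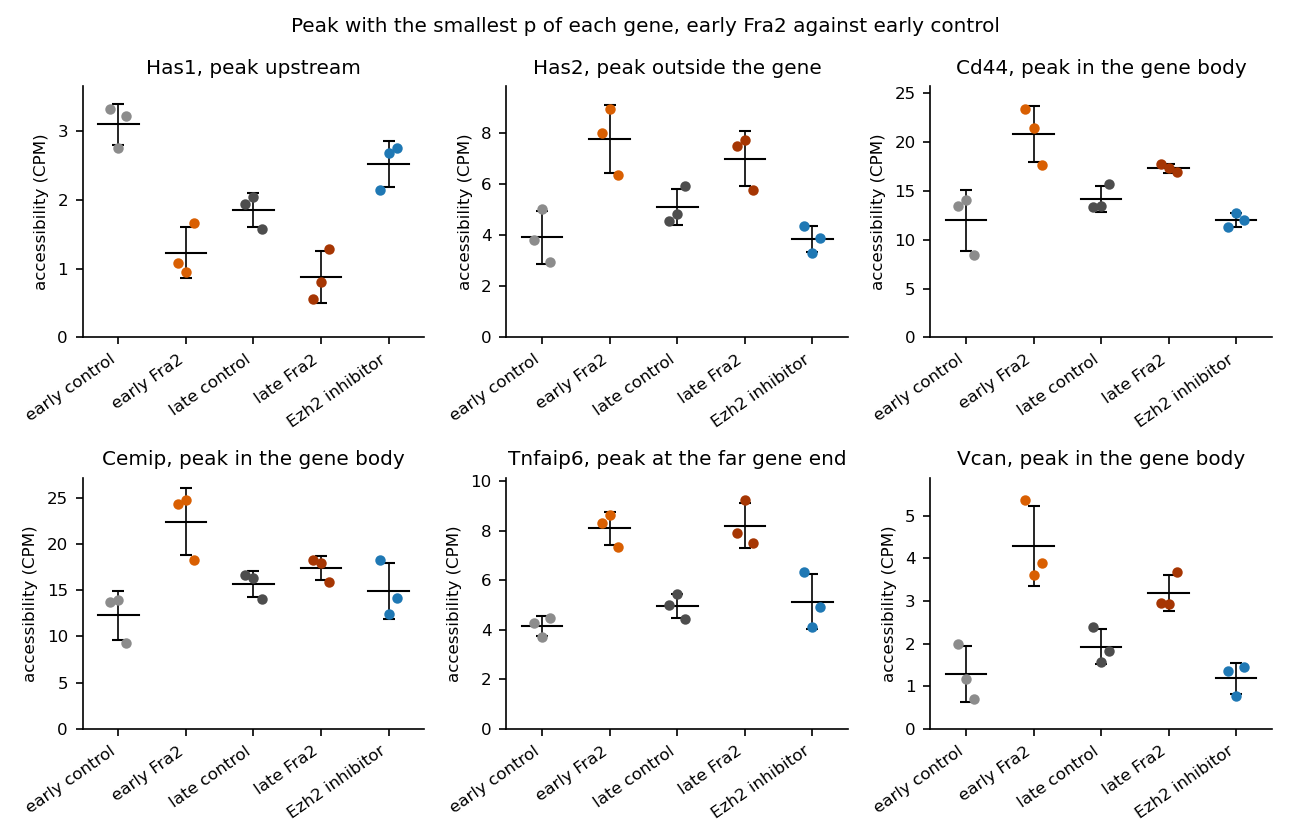
Accessibility (CPM, vertical axis) in each of the 15 libraries, by group, at the peak of each gene with the smallest p for early Fra2 against early control. Points are libraries, the long bar is the mean and the error bar the SD (n = 3). The early Fra2 libraries lie below the early controls at the Has1 peak and above them at the other 5, and the late Fra2 libraries lie on the same side of the late controls at Has1, Cd44, Tnfaip6 and Vcan and overlap them at Has2 and Cemip.

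Whether the Fra2 effect differed between times was tested as the difference of the 2 changes, late minus early. None of the 190 member peaks passed (edgeR), against 0.0935% of all peaks. DESeq2 also called none, and 38 member peaks (20.0%) had an unadjusted p under 0.05 against 9.57% of all tested peaks. The calls at one time that were missing at the other, such as those at Has2 and Cd44, are therefore not shown to differ between times. Of the gene sums none passed, where 0.0710% of all genes did. Without early control 3, however, the difference at Cd44 passed (0.22, adjusted p = 0.0088, against 0.16 ± 0.06 and 0.33 with all libraries), and it also passed over peaks within 10 kb of the gene (0.32, adjusted p = 0.0374). At Cemip the difference was −0.29 ± 0.07 (adjusted p = 0.173 with edgeR and 0.0325 with DESeq2).

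Control cells were also compared between the times. Late against early control, 5 member peaks rose and 3 fell, 2.63% and 1.58% against a background of 2.04% and 1.23%, and each of the 8 calls was lost under at least 2 alternatives. The strongest was the Cd44 peak chr2:102808268-102808769 past the far end, which held 9.49, 10.3 and 7.01 CPM in late controls, above the early controls given earlier (0.81 ± 0.17, adjusted p = 0.00376). It was lost when only the groups compared were fitted (adjusted p = 0.0503) and without late control 2 (adjusted p = 0.0566). Of the Cd44 peaks that fell, the smallest p was 15.1 kb upstream, at chr2:102916547-102917048, with 8.05, 9.58 and 6.58 CPM early and 2.61, 4.89 and 5.85 CPM late (−0.86 ± 0.19, adjusted p = 0.00556), a call lost without early control 2 or late control 1 and when only the groups compared were fitted (adjusted p 0.064 to 0.0741). The highest Has2 peak, chr15:56721318-56721819, rose from 18.3, 15.7 and 9.94 CPM to 19.3, 26.1 and 23.0 CPM (0.60 ± 0.16, adjusted p = 0.0263), a call lost when only the groups compared were fitted and without early control 2 or 3 or late control 2 or 3 (0.42 to 0.63, adjusted p up to 0.217). A Vcan peak 4.9 kb inside the gene rose from 0.98 to 1.29 CPM early to 2.24 to 2.90 CPM late (1.13 ± 0.33, adjusted p = 0.0411), and was lost under 7 of 13 alternatives, those that left out any library but late control 1 among them (adjusted p up to 0.152).

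Set directly against the inhibitor cells, early Fra2 cells differed at 31 member peaks, 14 higher and 17 lower, 7.37% and 8.95% against a background of 9.02% and 5.20%. This comparison and that of the inhibitor share libraries with the early Fra2 comparison, so the values are set side by side only. Has2 was higher at 5 peaks and lower at none, and its sum was higher by 0.30 ± 0.05 (adjusted p = 4.69e-04), where 15.2% of genes passed in either direction. Cd44 was higher at 5 peaks and lower at 13. Those 13 lay past the far end (3 peaks) and in the gene body (10 peaks), with log2 fold changes of −1.40 to −0.59, and the smallest p was at chr2:102809395-102809896 (1.57, 1.84 and 2.09 CPM against 5.23, 3.59 and 5.52 CPM, −1.40 ± 0.25, adjusted p = 4.29e-05). The Vcan peak at 43.5 kb was higher by 1.85 ± 0.28 (adjusted p = 2.62e-06), and the Has1 peak upstream was lower by a log2 fold change of −1.04 ± 0.33 (adjusted p = 0.0227), a call lost without early Fra2 1 or 2 or inhibitor library 2 or 3.

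Genes of the wider pathway were read beside these. A list of 46 other genes of hyaluronan metabolism, in 4 groups by role, was examined, and 43 had a peak (Hmmr, Hyal3 and Spam1 had none), 487 peaks in all. In early Fra2 cells 50 of these rose and 20 fell (10.3% and 4.11%), in late Fra2 cells 35 rose and 21 fell (7.19% and 4.31%), and with the inhibitor 4 rose and 2 fell (0.821% and 0.411%), shares near those of all peaks given above. Their median log2 fold changes were −0.02, −0.01 and 0.01. The peaks named below have the smallest p of their group and direction, and were not refitted under the alternatives.

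Among synthesis and precursor genes, 10 of 95 peaks rose and 5 fell early (10.5% and 5.26%), and 6 rose and 7 fell late (6.32% and 7.37%). Over all tested peaks these shares were 10.1% and 4.92% early and 6.44% and 3.54% late. A peak 27.2 kb upstream of Gfpt2, an enzyme of the pathway to UDP-N-acetylglucosamine, rose from 7.71 ± 1.47 to 17.5 ± 1.81 CPM early (SD, n = 3; log2 fold change 1.14, adjusted p = 5.10e-07). A peak 56.8 kb upstream of Hk2, a hexokinase, fell from 3.58 ± 1.64 to 1.38 ± 0.535 CPM early (−1.29, adjusted p = 0.00703). Late, a peak inside Uap1, which forms UDP-N-acetylglucosamine, rose from 2.64 ± 0.47 to 5.70 ± 0.864 CPM (1.13, adjusted p = 1.96e-04), while another Gfpt2 peak, inside the gene, fell from 2.57 ± 0.316 to 0.959 ± 0.256 CPM (−1.39, adjusted p = 0.00324).

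Among receptors and linkers, 17 of 145 peaks rose and 3 fell early (11.7% and 2.07%, against 10.1% and 4.92% of all tested peaks). Late, 17 rose and 5 fell (11.7% and 3.45%, against 6.44% and 3.54%). Msn and Ezr encode moesin and ezrin, which tie CD44 to the actin cortex. A peak inside Msn rose early from 3.77 ± 0.723 to 8.55 ± 2.54 CPM (1.14, adjusted p = 1.71e-05), and a peak 21.0 kb upstream of Ezr rose late from 2.77 ± 0.738 to 6.82 ± 0.543 CPM (1.30, adjusted p = 6.74e-06). The peak at an end of Tlr4, a receptor that hyaluronan fragments have been reported to engage, fell early from 5.06 ± 0.604 to 2.83 ± 0.807 CPM (−0.84, adjusted p = 0.00643). The start-site peak of Rdx (radixin) fell late from 9.32 ± 1.14 to 6.20 ± 0.68 CPM (−0.59, adjusted p = 0.0109). All 4 rises with the inhibitor in the 4 lists were in this group, 2.76% of its peaks against 0.552% of all tested peaks. The smallest p was inside Layn, a membrane hyaluronan receptor, at 3.69 ± 1.16 against 6.52 ± 0.652 CPM (0.74, adjusted p = 0.0317).

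Among degradation genes, 11 of 64 peaks rose and 2 fell early (17.2% and 3.12%, against 10.1% and 4.92% of all tested peaks). Late, 4 rose and 0 fell (6.25% and 0.00%, against 6.44% and 3.54%). A peak 4.4 kb outside Cemip2, which encodes a cell-surface hyaluronidase, rose early from 3.71 ± 0.985 to 8.22 ± 0.903 CPM (1.08, adjusted p = 3.93e-05). At Hexa, a lysosomal hexosaminidase subunit, the start-site peak fell early from 14.3 ± 2.72 to 9.75 ± 1.5 CPM (−0.57, adjusted p = 0.0101) and a peak inside the gene rose late from 7.35 ± 0.692 to 11.5 ± 0.805 CPM (0.65, adjusted p = 0.00358). Among matrix partners, 12 of 183 peaks rose and 10 fell early (6.56% and 5.46%), and 8 rose and 9 fell late (4.37% and 4.92%). With the inhibitor 2 fell (1.09%, against 0.341% of all tested peaks). A peak inside Habp2 rose early from 2.06 ± 0.216 to 5.14 ± 0.247 CPM (1.34, adjusted p = 2.62e-05). A peak inside Itih5, an inter-alpha-inhibitor heavy chain gene, fell at both times, from 8.68 ± 1.64 to 5.77 ± 0.131 CPM early (−0.63, adjusted p = 0.00718) and from 7.01 ± 1.32 to 4.10 ± 0.252 CPM late (−0.76, adjusted p = 0.00246). A peak inside Adamts5, a protease that cuts versican and aggrecan, rose late from 2.78 ± 0.593 to 5.11 ± 1.46 CPM (0.86, adjusted p = 0.00868), and the start-site peak of Acan (aggrecan) fell with the inhibitor from 3.24 ± 1.07 to 1.40 ± 0.444 CPM (−1.15, adjusted p = 0.0416).

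The gene whose summed accessibility followed Cd44 most closely across the 15 libraries was Neb (Pearson r = 0.927), with Aldh1a1 (0.912) and Mnat1 (0.907) after it, of 14745 genes with at least 3 peaks. Closest to Has2 were Ust (0.958), Mrps10 and Rai14, and closest to Has1 were Tubb4a (0.9), Mxd3 and Dnm1. Cemip was most like Foxe3 (0.919), Tnfaip6 most like Sdhaf3 (0.843) and Vcan most like Tor1aip2 (0.903). These correlations describe libraries that share groups and scaling, and carry no test.

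In the authors' deposited per-library peak lists every one of the 190 member peaks was found in at least 1 library, and 44 were found in all 15. Of the 105 Cd44 peaks 20 were in all 15 lists, of the 27 Has2 peaks 9, of the 24 Cemip peaks 6, of the 16 Vcan peaks 4, of the 9 Tnfaip6 peaks 3 and of the 9 Has1 peaks 2. The number of member peaks listed ran from 49 in early control 3, the shallowest library, to 183 in late Fra2 1, so no difference between groups was drawn from the lists.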

How the data were processed

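Omni-ATAC-seq counts of 15 libraries were used as deposited: raw read counts per consensus peak, a table the authors made for 502-bp peaks in mm10. The authors' peak lists give a deposited fold enrichment (a ratio) and −log10 p and q values per peak, called with MACS2 per the submitters' processing notes. No source used here names the aligner or counting tool. A deposited score of undescribed origin was not used in any result.

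Peaks were assigned to RefSeq genes of GRCm38.p6, which paired 182983 peaks with a gene. The default filter removed 18 peaks. All 15 libraries entered 1 edgeR 4.0.16 quasi-likelihood fit (R 4.3.3) with TMM scaling, a mean per group and no fold threshold, on peaks and on counts summed per gene, and p-values were adjusted by Benjamini-Hochberg over all peaks or genes. The script was tested on simulated data. A list overlap was 1 base or more. Alternatives were DESeq2 1.42.0, other scalings, no filter, only the groups compared, a replicate block, and leaving out each library. Each SE comes from the quasi-likelihood test and reflects spread among libraries, which could be technical only, as well as counting error. Each SD is over the 3 libraries of a group, and the 3-count floor concerns counting only.

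The members and the lists were chosen with earlier results of these data known. Named peaks are the gene-end peak and the highest peak of each member, the smallest p per direction and comparison, and peaks called at both times, and for each pathway list the smallest p per direction.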

Additional observations from a re-analysis of the deposited data

How the results depend on the processing

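No member call changed direction under any alternative. Of the 21 early, 17 late and 5 inhibitor calls, 9, 5 and 0 were kept under all 13 alternatives, and of the 8 control-time and 31 Fra2-against-inhibitor calls, 0 and 9. Scaling on gene-end peaks gave 36 member calls early, 49 late and 11 with the inhibitor. Fitting only the groups compared gave 11, 30 and 0, with 0 between control times and 53 for early Fra2 against inhibitor. Over all peaks it called 7.27%, 16.1% and 0.00533% in the first 3, and 0.549% and 20.4% in the last 2. Loess offsets gave 8 calls with the inhibitor and 13 between control times (2.62% and 4.73% of all tested peaks), and peaks within 10 kb gave 5 of the latter. The cause was not tested. Leaving out 1 library gave 15 to 24 calls early, 5 to 17 late, 1 to 10 with the inhibitor, 2 to 11 between control times and 14 to 36 for early Fra2 against inhibitor. The share called over all tested peaks moved as well. In the same order it ran from 9.56% to 19.5%, 4.28% to 9.33%, 0.107% to 3.67%, 1.11% to 4.21% and 8.13% to 11.8%. The late count was 5 without late Fra2 2 or late control 3, 9 without late Fra2 1 and 10 without late Fra2 3. Between control times it was 2 without early control 2 or late control 2 and 3 without late control 3. DESeq2 gave 17, 15, 5, 7 and 28 calls in the order above, and the tested difference between times gave 0 in every fit.

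The deviations of same-numbered libraries correlated at −0.01 to 0.26 early, −0.09 to −0.01 late and −0.07 to −0.01 for the inhibitor. Early, the values were 0.26 for number 1 and 0.23 for number 3. Differently numbered libraries were not set beside them, so whether the replicate numbers pair the libraries is not decided. With the replicate block the counts were 21, 17, 6, 7 and 32. The block ended 3 calls: the early gene sum of Tnfaip6 (0.22, adjusted p = 0.0543), the late gene sum of Has1 (−0.18, adjusted p = 0.0522) and 1 Cd44 peak between control times, chr2:102896770-102897271 (−0.74, adjusted p = 0.0562). At an unadjusted p under 0.05, 49 member peaks stood early, 47 late and 40 with the inhibitor. These are 25.8%, 24.7% and 21.1% of the members, against 29.9%, 26.0% and 14.7% of all tested peaks. The depth of early control 3 limits weak peaks, its 3-count floor being 0.42 CPM.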
